A study of Mus musculus with 10 samples.

Results

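Of the 32531 gene rows in the deposited tables, 10 genes are described here because they differed between the left and right medial habenula in 2 of the 5 replicates. They are Tbr1, Meis2, Isx, Samd3, Rragd, Vsnl1, Kalrn, Rhob, Snrpd3 and Fam161a, and all 10 were measured in all 10 libraries. They were chosen by their left and right read counts in replicates 1 and 5, so their values in those 4 libraries are given as a description with no test. The left and right values of replicates 2 to 4 were tested, but they were also known when the genes were chosen, so that test is not fully independent of the choice. The study compared the neurons of both sides in adult Chat-EGFP/Rpl10a mice (Chat-TRAP line DW167), a BAC transgenic line. In this line the ribosomal protein Rpl10a carries an EGFP tag under the control of the choline acetyltransferase gene, so that the RNA on tagged ribosomes can be pulled down (translating ribosome affinity purification, TRAP). Each side was sampled in 5 libraries, all of them pull-downs from untreated tissue as far as the labels say, and both sides carry the same transgene. The labels give neither how many animals stand behind a library nor whether each library is from animals of its own, so every p-value measures the spread between these libraries, which may be technical.

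The medial habenula is a small paired nucleus above the thalamus whose neurons release acetylcholine, glutamate and peptides onto the interpeduncular nucleus. In fish its counterparts on both sides differ in size and gene expression, and the question put to these mouse libraries was which transcripts differ between the sides. The 10 genes belong to no single pathway. Tbr1, Meis2 and Isx encode DNA-binding transcription factors. Rragd, Rhob and Kalrn belong to GTPase signalling, Vsnl1 encodes a neuronal calcium sensor, Snrpd3 a core protein of the splicing machinery, Fam161a a protein of the cilium and centrosome, and Samd3 a protein with a sterile alpha motif.

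Library depth was 42488448 to 67942836 reads in genes. Levels below are CPM, counts normalised to the total of reads in genes of each library. Replicates 1 and 5 of each side stood apart from the other 6 libraries and resembled each other closely. Over genes counted 20 to 100 times in the libraries compared, the chi-square per gene, which is about 1 where only sampling noise separates a pair, was 1.14 between right replicates 1 and 5 and 1.45 between left replicates 1 and 5. It was 3.74 to 21.0 for the other 43 pairs. Over genes counted 100 to 500 times it was 1.32 for the right pair and 2.165 for the left pair, against 4.38 to 57.1 for the others. The left pair in particular thus differed by more than sampling noise. Both libraries of a side were still the most alike and may hold the same RNA, and agreement between them is not agreement between animals. The labels put these 4 libraries in lanes 7 and 2 (left) and lanes 3 and 2 (right).

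The markers of medial habenular neurons were present in every library. The summed level of 12 of them, among them Chat, Slc18a3, Pou4f1 and Tac2, was 9108 and 9466 CPM in left replicates 5 and 1 and 9372 and 9603 CPM in right replicates 5 and 1. In replicates 2 to 4 it lay between 6345 and 7791 CPM in left libraries and between 4990 and 8158 CPM in right ones. The 14 oligodendrocyte markers ran the other way, with sums of 107 to 121 CPM in replicates 1 and 5 against 435 to 1788 CPM in the other libraries. Right replicate 2 held the 435 CPM and lay between both sets. Between the sides within replicates 1 and 5, endothelial and pericyte markers were low but uneven. Of 14 such genes 10 were higher in both right libraries than in both left ones and 2 were lower. Among all genes averaging 1 CPM or more in these libraries, 29.8% were higher in both right ones and 25.2% in both left ones. Only 1 of the 14 averaged that much. The 14 summed to 5.32 and 6.37 CPM in the left libraries against 7.39 and 8.42 CPM in the right ones. Cdh5, which marks endothelium, was at 0 in both left libraries. Astrocyte markers summed to 625 and 630 CPM in the left libraries against 668 and 672 CPM, and microglial markers to 8.75 and 9.41 CPM against 7.48 and 8.27 CPM. Pineal and photoreceptor markers summed to 9.87 and 9.95 CPM against 14.95 and 15.2 CPM, with 4 of 10 genes higher in both right libraries and 0 in both left ones. Their sums overlapped in replicates 2 to 4, at 7.66 to 11.3 CPM on the left and 10.7 to 13.4 CPM on the right. Of the 4 genes tested there, 3 lay toward the right and 1 toward the left. Their median log2 fold change was -1.42, with 0 called. The part these cell types have in the differences of the 10 genes was not tested. In bulk pull-downs, fewer cells of a type and less RNA per cell cannot be told apart.

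**Figure D1:**
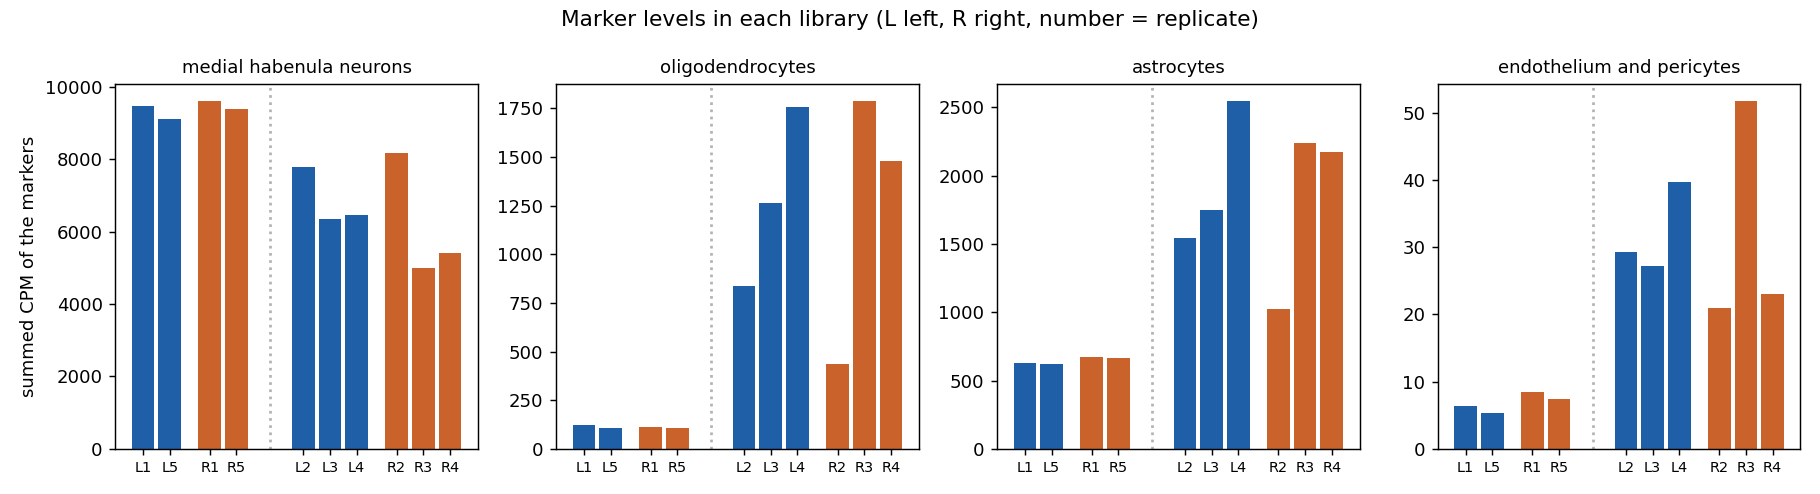
Summed CPM of 4 lists of cell type markers in each library, left in blue and right in orange, replicates 1 and 5 left of the dotted line and replicates 2 to 4 right of it. Habenular markers are at 9108 CPM or more in replicates 1 and 5, where oligodendrocyte markers are at 121 CPM or less.

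In replicates 1 and 5, 6 of the 10 genes were higher on the right and 4 higher on the left, as the choice of genes fixed. Both libraries of a side lay on the same side of both libraries of the other for all 10. That was also so for 25.2% of the 12665 genes that averaged 1 CPM or more in these libraries in the direction of the left and for 29.8% in the direction of the right. Nothing follows from these counts, since these libraries chose the genes. Tbr1, Meis2, Samd3 and Isx were past 2-fold, all of them toward the right, and the other 6 were not. Past that fold were 0.103% of the 12665 genes toward the left and 0.213% toward the right. Tbr1 and Meis2 had ranks 1 and 2 of those 12665 by the size of the log2 ratio, and Fam161a, Snrpd3, Vsnl1, Rhob, Rragd and Kalrn ranks 64, 86, 177, 182, 214 and 361. Samd3 and Isx fell short of the mean of 1 CPM and were not ranked.

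In replicates 2 to 4 none of the 10 genes differed between the sides past the threshold. In the quasi-likelihood test of edgeR, 0 of 16809 genes had a Benjamini-Hochberg adjusted p under 0.05 (0% in either direction), and 72 (0.428%) had an unadjusted p under 0.05. DESeq2 and limma-voom also called 0, with 114 and 836 genes at an unadjusted p under 0.05. A uniform spread of p-values would put a share of 0.05 of the genes there, and edgeR and DESeq2 gave far fewer. A high adjusted p in these fits is thus no evidence that the sides are equal. All 10 genes passed the filter on low counts, which asked for about 0.156 CPM in 3 libraries, and the adjusted p of each was 0.9999. The sign of the difference was the same as in replicates 1 and 5 for 4 genes (Isx, Samd3, Kalrn and Fam161a) and the opposite for 6. Among all 12663 genes that could be compared, the sign was the same for 40.3%, and among the 40 genes past 2-fold in replicates 1 and 5 it was the same for 15, or 37.5%. The share among the 10 genes is near that background and is no result about them.

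**Figure D2:**
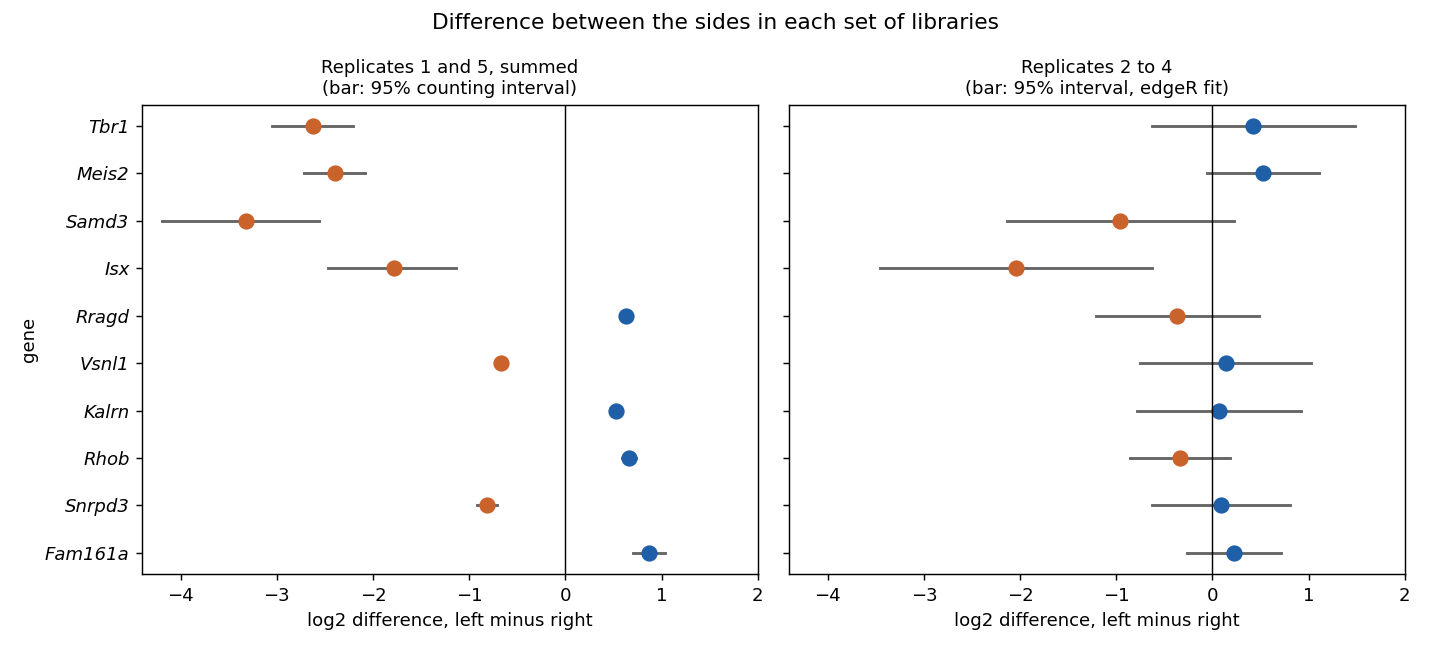
Log2 difference between the sides (left minus right) for each gene, with the 95% counting interval in replicates 1 and 5 and the 95% interval of the edgeR fit in replicates 2 to 4; blue is higher on the left and orange higher on the right. In replicates 2 to 4 the intervals of 9 genes include 0; that of Isx, from -3.45 to -0.62, does not, but Isx passed the filter through its right libraries alone and its adjusted p in edgeR was 0.9999.

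Libraries of the 2 sides did not overlap in replicates 2 to 4 for 4 of the 10 genes. Every right library was above every left one for Isx and Samd3, as for 1.6% of the 16809 genes tested, and every left library above every right one for Meis2 and Fam161a, as for 2.02%. Over all 10 libraries the sides of 3 genes did not overlap, Fam161a on the left (0.119% of 16809 genes) and Isx and Samd3 on the right (0.101%), but 4 of those libraries chose the genes. The values of replicates 2 to 4 were also known at the choice, and Isx entered the test through its right libraries alone. All these counts are therefore a description, and no excess over the shares can be read from them.

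Isx, a homeobox factor known from the intestine where it represses genes of vitamin A formation, had the fewest reads of the 10. Its counts in replicates 2, 3 and 4 were 5, 4 and 7 in the left libraries against 28, 25 and 10 in the right ones, or 0.0792, 0.0676 and 0.107 CPM against 0.43, 0.379 and 0.235 CPM. All 3 left libraries were below all 3 right ones. The fitted log2 fold change was -2.04 (95% CI -3.45 to -0.62), an unadjusted p of 0.00978 in edgeR that ranked 9 of 16809 and gave an adjusted p of 0.9999. The exact two-sided permutation p was 0.1, the smallest that 3 against 3 libraries allow. It takes no account of the pairing of like-numbered libraries, and an exact permutation within the 3 pairs gave 0.25, again the smallest possible, for Isx as for Samd3, Meis2 and Fam161a. Isx passed the filter through its right libraries alone, since 0 left libraries reached 0.156 CPM, so its entry into the test favoured a difference. In replicates 1 and 5 its left levels were 0.219 and 0.217 CPM and its right levels 0.864 and 0.633 CPM, from 13, 12, 58 and 43 reads. The log2 ratio there was -1.78 (counting interval -2.47 to -1.14). Each side of Isx was higher in replicates 1 and 5 than in replicates 2 to 4, with means 2.58-fold apart on the left and 2.15-fold on the right. The gene lies on chromosome 8 of GRCm38 (mm10), from 74873173 to 74893506 on the plus strand, and shares no exonic base with another gene.

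Samd3 kept the same order at low counts. It had 15, 13 and 21 reads in left replicates 2, 3 and 4 and 44, 29 and 16 reads in the right ones, or 0.238, 0.22 and 0.32 CPM against 0.675, 0.439 and 0.377 CPM. The highest left library was below the lowest right one by little, and right replicate 2 was the highest. The log2 fold change was -0.96 (95% CI -2.14 to 0.22, adjusted p = 0.9999 in edgeR, exact permutation p = 0.1). In replicates 1 and 5 its left levels were 0.135 and 0.126 CPM and its right levels 1.36 and 1.27 CPM, a log2 ratio of -3.33 (counting interval -4.19 to -2.56) from 15 reads in all on the left and 177 on the right. The fitted difference in replicates 2 to 4 came to 1.94-fold, smaller than that ratio. Samd3 spans 26229707 to 26272172 on the plus strand of chromosome 10.

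Fam161a was the gene of the left side with the same order in all libraries. In humans its loss causes a retinal degeneration, and the protein sits at the connecting cilium of photoreceptors. It stood at 5.07, 5.58 and 5.21 CPM in left replicates 2, 3 and 4 and at 4.57, 3.94 and 4.85 CPM in the right ones, from 206 to 342 reads. The gap between the lowest left and the highest right library was small. The fit gave a log2 fold change of 0.22 (95% CI -0.27 to 0.72, adjusted p = 0.9999 in edgeR, exact permutation p = 0.1). In replicates 1 and 5 its left levels were 6.79 and 6.78 CPM and its right levels 3.86 and 3.56 CPM, a log2 ratio of 0.87 (counting interval 0.71 to 1.04). Leaving out 1 library from replicates 2 to 4 moved the fold change between 0.13, without right replicate 3, and 0.31, without right replicate 4. Fam161a varied least of the 10 over all libraries, 1.91-fold from lowest to highest. It spans 23007531 to 23030788 on the plus strand of chromosome 11.

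Upstream sequences of these 3 genes are shown because theirs were the differences with 1 direction in all libraries. They come from RefSeq (GRCm38.p6) and end just before the RefSeq start, or before the first exonic base in GENCODE M21. Capitals mark matches, on either strand, to AGGTGTGA, a site of T-box factors such as Tbr1, or to TGACAG, a site of Meis factors.
Samd3 chr10:26229457-26229706 plus strand: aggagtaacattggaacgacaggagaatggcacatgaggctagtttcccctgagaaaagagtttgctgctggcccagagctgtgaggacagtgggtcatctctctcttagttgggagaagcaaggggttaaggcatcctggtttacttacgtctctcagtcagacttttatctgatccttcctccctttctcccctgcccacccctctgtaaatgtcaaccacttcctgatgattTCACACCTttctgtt
Isx chr8:74872924-74873172 plus strand: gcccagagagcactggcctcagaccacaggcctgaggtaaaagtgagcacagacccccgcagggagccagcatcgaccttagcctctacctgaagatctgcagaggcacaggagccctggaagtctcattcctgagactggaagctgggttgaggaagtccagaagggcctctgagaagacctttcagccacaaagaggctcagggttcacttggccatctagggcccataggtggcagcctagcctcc
Fam161a chr11:23008097-23008346 plus strand: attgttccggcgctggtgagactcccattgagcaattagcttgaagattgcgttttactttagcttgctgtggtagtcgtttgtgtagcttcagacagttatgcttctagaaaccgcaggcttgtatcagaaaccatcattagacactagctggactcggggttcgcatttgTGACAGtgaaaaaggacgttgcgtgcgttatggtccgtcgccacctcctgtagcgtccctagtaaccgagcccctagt
The Samd3 match to the T-box site begins 15 bases before the start and reads as its reverse complement. The Fam161a match to the Meis site begins 78 bases before the first of its 2 starts. Isx held neither. All 10 genes had a window of 250 bases in the RefSeq table, 12 windows in all with the second starts of Vsnl1 and Fam161a. The T-box site occurred in 1 of the 10 genes and in 1.12% of 32851 mouse windows, and the Meis site in 2 (Fam161a and Tbr1) and in 15.9%. The E-box CACGTG, bound by lysosomal regulators such as Tfeb, occurred in 0 of the 10 and in 6.02% of the windows. A match describes letters only, and no match says only that these letters are not in the window.

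Tbr1 and Meis2 had the largest ratios of the ranked genes in replicates 1 and 5 and pointed the other way in replicates 2 to 4. Tbr1, the T-box factor of cortical and hippocampal projection neurons, stood at 0.506 and 0.451 CPM in left replicates 1 and 5 and at 3.07 and 2.83 CPM in the right ones, 6.15-fold apart (log2 ratio -2.62, counting interval -3.05 to -2.21). In replicates 2, 3 and 4 its left levels were 1.74, 1.79 and 1.14 CPM and its right levels 1.96, 0.742 and 0.73 CPM. The sides overlapped there, right replicate 2 being the highest of the 6 and right replicates 3 and 4 the lowest. Its fitted log2 fold change was 0.42 (95% CI -0.63 to 1.48, adjusted p = 0.9999 in edgeR). Leaving out 1 library moved it between 0.18, without right replicate 3, and 1.05, without right replicate 2. The level on the left was thus 3.26-fold higher in replicates 2 to 4 than in replicates 1 and 5, while on the right it was 2.57-fold lower. Tbr1 lies on chromosome 2 from 61802930 to 61814114 on the plus strand.

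Meis2, a homeodomain transcription factor of the TALE class, had no overlap in either set and changed its order between them. In replicates 1 and 5 its left levels were 1.08 and 0.631 CPM and its right levels 4.48 and 4.58 CPM, 5.25-fold apart (log2 ratio -2.39, counting interval -2.71 to -2.08). Left replicates 1 and 5 themselves were 0.77 apart on the log2 scale, the widest such gap of the 10 genes. Across replicates 2, 3 and 4 its left levels were 3.94, 5.34 and 4.48 CPM and its right levels 2.70, 2.98 and 3.72 CPM. Every left library was then above every right one. The model put the log2 fold change at 0.53 (95% CI -0.06 to 1.11, unadjusted p = 0.0723 and adjusted p = 0.9999 in edgeR, exact permutation p = 0.1). The left level of replicates 1 and 5 was the one that stood out, since the right libraries of those replicates and all of replicates 2 to 4 lay between 2.70 and 5.34 CPM. Meis2 lies on chromosome 2 from 115863064 to 116065839 on the minus strand.

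**Figure D3:**
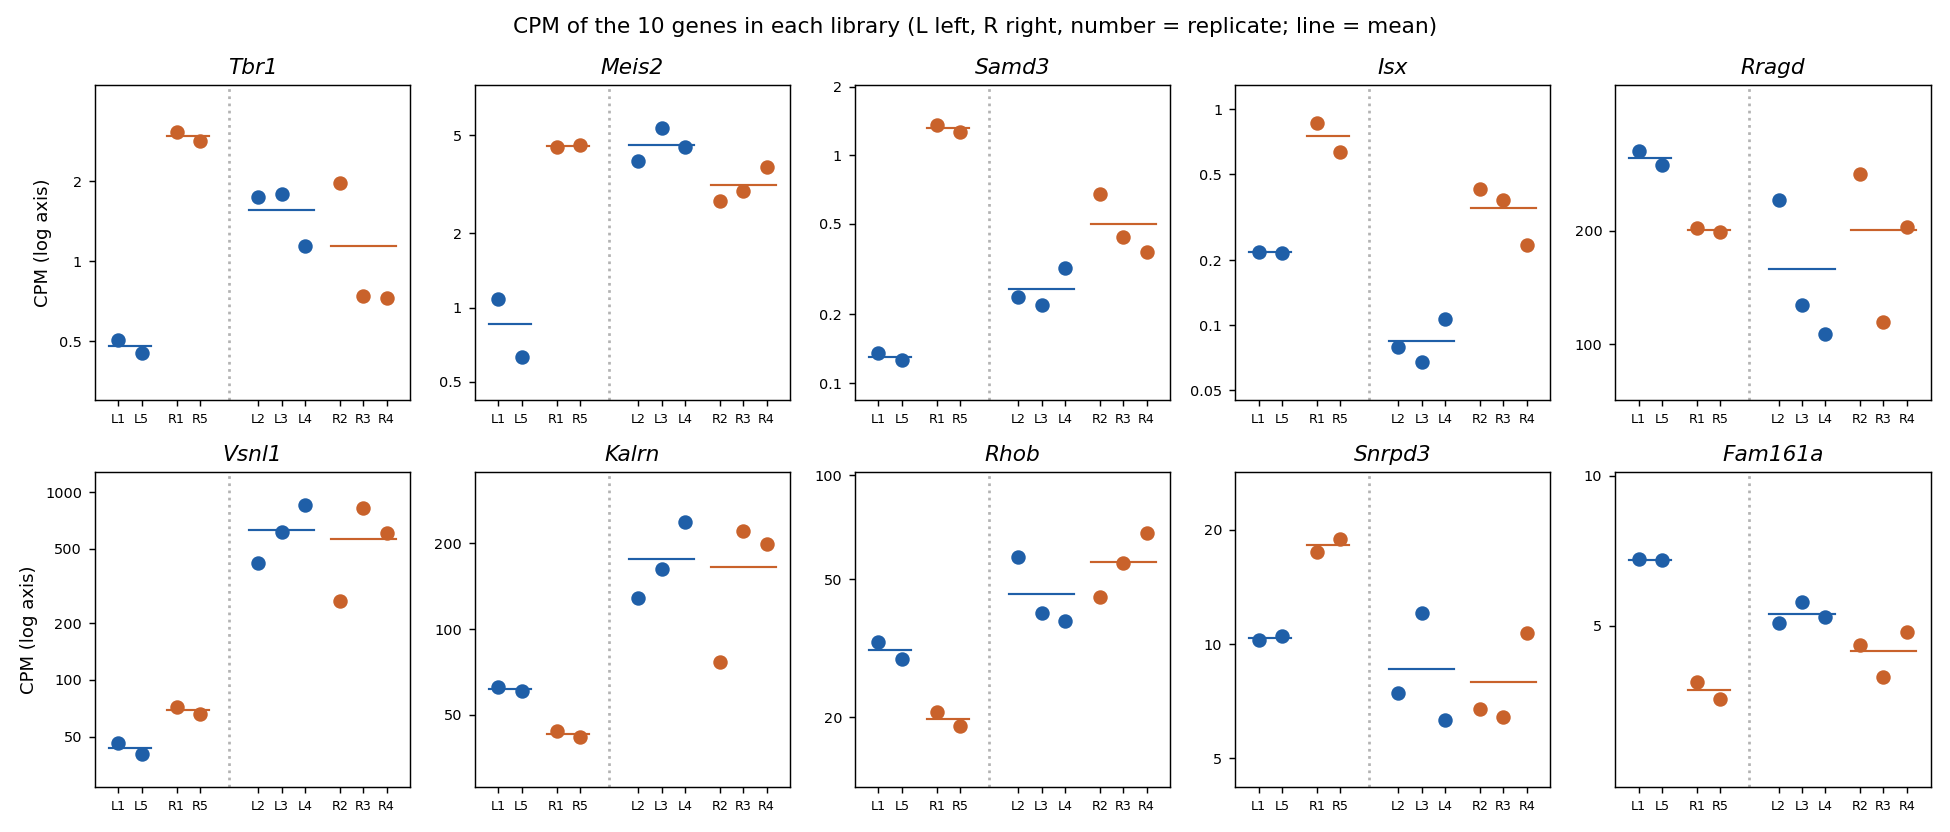
CPM of each gene in every library on log axes, left in blue and right in orange, replicates 1 and 5 left of the dotted line and replicates 2 to 4 right of it; lines are means. Isx, Samd3 and Fam161a keep 1 order of the sides throughout, Meis2 changes it, and the sides of the other 6 overlap in replicates 2 to 4.

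In the list of T-box and homeobox factors, Pbx3 had left and right means of 216 and 215 CPM and Pknox2 of 127 and 135 CPM. Meis3 had 26.3 and 28.7 CPM. Of the 12 other genes in that list 7 had a mean of at least 1 CPM and 0 of them were past 2-fold, with a median log2 ratio of -0.09 against 0.00042 for all genes. In replicates 2 to 4, 0 of 10 tested were called, with a median log2 fold change of 0.04 against -0.0034 for all genes. The T-box relatives Eomes and Tbx21 had too few reads to be tested. Other markers of cortical and hippocampal neurons, examined since Tbr1 is one, summed to 1726 and 1763 CPM in the left libraries of replicates 1 and 5 and to 1729 and 1740 CPM in the right ones, where 9 of the 20 were higher in both right libraries and 4 in both left ones. Nrn1 alone made up most of each of these sums, with left and right means of 1362 and 1323 CPM. Neurod6 had means of 7.46 and 7.17 CPM there. Emx1 stood at 0.0175 and 0.0222 CPM, and Crym and Eomes were at 0 in all 4 libraries. Of those 20 genes 13 reached 1 CPM there and 0 of them were past 2-fold. Below 1 CPM, Fezf2 had left and right means of 0.179 and 0.697 CPM, a log2 ratio of -1.875 in the direction of Tbr1. Emx2 had 0.0518 and 0.0147 CPM, a log2 ratio of 1.46 the other way. Markers of GABAergic and striatal neurons, which also express Meis2, summed to 1651 and 2017 CPM in left replicates 1 and 5. The right sums were 2032 and 2154 CPM, with 11 of 20 higher in both right libraries and 2 in both left ones. Zic1 alone made up most of each sum, with 1402 and 1768 CPM (left) against 1756 and 1884 CPM (right). Gad2 had 18.9 and 15.7 CPM against 34.1 and 30.1 CPM. Gad1 overlapped, with 7.13 and 7.07 CPM against 7.14 and 6.52 CPM. In replicates 2 to 4 Gad2 overlapped too, with 155, 302 and 258 CPM against 108, 417 and 294 CPM. The sums of this list also overlapped there, at 1897 to 1982 CPM (left) and 1575 to 2103 CPM (right). Yet 3 of its 20 genes were higher in every left library than in every right one, and 0 were lower. Of its 16 tested genes, 12 leaned left, the direction of Meis2 in those libraries, and 4 leaned right. The middle value of their log2 fold changes was 0.218, and no gene was called. The part of either cell type in Tbr1 and Meis2 was not tested.

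The genes of GTPase signalling differed by less than 2-fold in replicates 1 and 5, at depths that left little counting error. Rragd, a Rag GTPase that pairs with RagA or RagB to bring mTORC1 to the lysosome, stood at 324 and 298 CPM in left replicates 1 and 5, above the 203 and 199 CPM of the right ones (log2 ratio 0.63, counting interval 0.61 to 0.66). In replicates 2, 3 and 4 its left levels were 241, 127 and 107 CPM and its right levels 282, 115 and 205 CPM. The sides overlapped over most of their range. The log2 fold change was -0.37 (95% CI -1.21 to 0.48, adjusted p = 0.9999 in edgeR). Without left replicate 2 it was -0.80, and without right replicate 2 it was -0.05. The other Rag GTPases, Rraga, Rragb and Rragc, had log2 ratios of 0.02, 0.16 and 0.07 in replicates 1 and 5. Of the 17 other genes of lysosomal nutrient sensing, 13 lay above 0 in those replicates with a median of 0.10 and a range from -0.39 (Tfeb) to 0.25 (Rheb), and 7 lay above 0 in replicates 2 to 4 with a median of -0.09, with 0 called. Mtor, Rraga and Rheb were highest of them in CPM over all libraries, at 171, 170 and 167. Rragd spans 32983037 to 33022180 on the plus strand of chromosome 4.

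Kalrn, a guanine nucleotide exchange factor that acts in dendritic spines, stood at 62.6 and 60.4 CPM in left replicates 1 and 5 and 43.6 and 41.8 CPM in the right ones (log2 ratio 0.53, counting interval 0.48 to 0.58). Across replicates 2, 3 and 4 its left levels were 128, 163 and 238 CPM and its right levels 76.5, 221 and 199 CPM. Right replicate 2 was the lowest of those 6, and the sides overlapped. The fit gave a log2 fold change of 0.07 (95% CI -0.78 to 0.92, adjusted p = 0.9999 in edgeR), and it turned to -0.28 without right replicate 2 and to -0.21 without left replicate 4. Trio, the paralog of Kalrn, had a log2 ratio of -0.04 in replicates 1 and 5 and a log2 fold change of -0.03 in replicates 2 to 4. Kalrn spans 33969073 to 34573532 on the minus strand of chromosome 16.

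Rhob, a small GTPase of endosomes encoded by a gene of 1 exon, stood at 33.0 and 29.4 CPM in left replicates 1 and 5 and 20.7 and 18.9 CPM in the right ones (log2 ratio 0.66, counting interval 0.59 to 0.73). In replicates 2, 3 and 4 its left levels were 58.1, 39.9 and 38.0 CPM and its right levels 44.5, 55.6 and 68.3 CPM. The sides overlapped and the right mean was the higher one. Its fitted log2 fold change was -0.33 (95% CI -0.85 to 0.19, adjusted p = 0.9999 in edgeR). Leaving out 1 library moved it between -0.55, without left replicate 2, and -0.14, without right replicate 4. Rhoa and Rhoc had log2 ratios of -0.07 and -0.21 in replicates 1 and 5, against 0.66 for Rhob. Of the 18 other genes of this family, led by Rac1 at 942 CPM, Trio at 385 CPM and Cdc42 at 368 CPM, 9 lay on each side of 0 in replicates 1 and 5 with a median of 0.00037 and a range from -0.56 (Rnd1) to 0.25 (Rhoq). In replicates 2 to 4, 9 lay on each side and 0 were called. Rhob is also known as a gene induced by growth factors, and immediate early genes were read beside it. Egr1 had left and right means of 44.2 and 49.2 CPM in replicates 1 and 5, Nr4a2 1384 and 1449 CPM and Arc 26.1 and 28.2 CPM. Of the 13 immediate early genes with at least 1 CPM there, 11 lay toward the right and 2 toward the left, with a median log2 ratio of -0.16. Of the 17 tested in replicates 2 to 4, 9 lay toward the left and 8 toward the right, with a median of 0.04. Any link between these genes and Rhob was not tested. Rhob spans 8497661 to 8500009 on the minus strand of chromosome 12.

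Vsnl1, an EF-hand calcium sensor that moves to membranes when it binds calcium, varied most between libraries. It stood at 46.4 and 40.5 CPM in left replicates 1 and 5 and 71.9 and 66.1 CPM in the right ones (log2 ratio -0.67, counting interval -0.71 to -0.62). Across replicates 2, 3 and 4 its left levels were 418, 616 and 858 CPM and its right levels 265, 822 and 604 CPM. The sides overlapped throughout. The model put the log2 fold change at 0.14 (95% CI -0.75 to 1.03, adjusted p = 0.9999 in edgeR), and it turned to -0.21 without right replicate 2 and to -0.14 without left replicate 4. Its mean was 14.5-fold higher in replicates 2 to 4 than in replicates 1 and 5 on the left and 8.16-fold higher on the right, against 1.59-fold between the sides of replicates 1 and 5. Oligodendrocyte and astrocyte markers were also highest in those libraries, and their part in the level of Vsnl1 was not tested. Camk2a, a kinase of forebrain excitatory neurons, had means of 29.6 and 35.9 CPM in replicates 1 and 5 and 567 and 515 CPM in replicates 2 to 4. Among its relatives Kcnip1, Ncald and Kcnip3, the highest in CPM at 794, 623 and 191 CPM over all libraries, had log2 ratios of 0.03, 0.09 and -0.06 in replicates 1 and 5. The 9 relatives with at least 1 CPM there ranged from -0.58 (Kcnip2) to 0.09 (Ncald). Hpca, at -0.51, and Kcnip2 were thus near the -0.67 of Vsnl1 and in its direction, at 2.98 and 4.23 CPM and at 1.35 and 2.03 CPM (left and right means). Hpca and Kcnip2 had log2 fold changes of -0.34 and -0.23 in replicates 2 to 4, against 0.14 for Vsnl1, and 0 of 10 relatives were called in replicates 2 to 4. Vsnl1 spans 11325242 to 11436613 on the minus strand of chromosome 12.

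Snrpd3, 1 of the Sm proteins that form the ring around spliceosomal RNAs, stood at 10.2 and 10.5 CPM in left replicates 1 and 5 and 17.4 and 19.0 CPM in the right ones (log2 ratio -0.81, counting interval -0.92 to -0.71). In replicates 2, 3 and 4 its left levels were 7.43, 12.05 and 6.30 CPM and its right levels 6.74, 6.44 and 10.7 CPM. The sides overlapped, with 1 high library on each. The log2 fold change was 0.09 (95% CI -0.63 to 0.81, adjusted p = 0.9999 in edgeR), and it turned to -0.25 without left replicate 3. Its partners in the ring did not share the ratio of replicates 1 and 5, with log2 ratios of 0.09 for Snrpd1, -0.13 for Snrpd2, -0.08 for Snrpb and 0.10 for Snrpe. Of the 17 other genes of Sm proteins and their assembly, 10 lay toward the left there with a median of 0.03 and a range from -0.20 (Snrpg) to 0.24 (Gemin4), and 15 toward the right in replicates 2 to 4 with a median of -0.12, with 0 called. The highest of them in CPM were Clns1a, Prmt5 and Wdr77 at 106, 76.4 and 59.2 CPM over all libraries. Snrpd3 spans 75517551 to 75537381 on the plus strand of chromosome 10. In the annotation 232 exonic bases of Snrpd3, 6.74% of them, also lie in exons of Gucd1 on the opposite strand. Whether the counting used strand is unknown here, so its count is uncertain to that extent. None of the other 9 genes shares an exonic base with another gene.

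For the cilium and retina list read beside Fam161a, 12 of 17 other genes lay toward the left in replicates 1 and 5 with a median log2 ratio of 0.07 and a range from -0.12 (Bbs1) to 0.40 (Rpgr). In replicates 2 to 4, 8 lay toward the left with a median of -0.0082, and 0 were called. Fam161b, the paralog of Fam161a, had means of 13.9 and 14.4 CPM in replicates 1 and 5. Cep290, Bbs1 and Bbs4, the highest of the list in CPM, stood at 109, 87.3 and 84.6 CPM over all libraries.

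**Figure D4:**
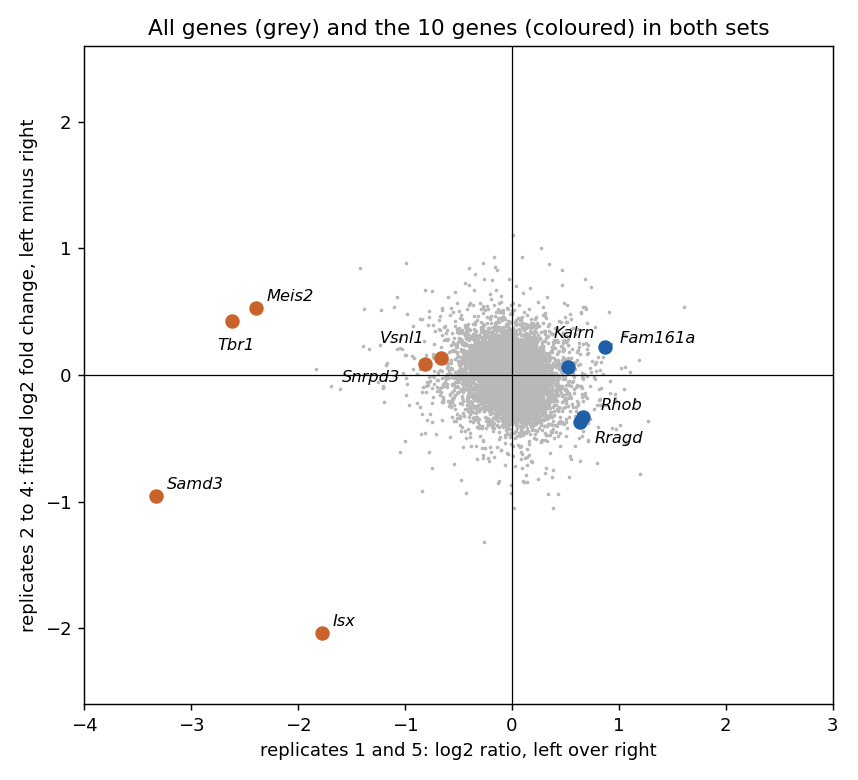
Each point is a gene averaging 1 CPM or more in replicates 1 and 5; the x axis is the log2 ratio of left over right in replicates 1 and 5 and the y axis the fitted log2 fold change in replicates 2 to 4. Coloured points are the 10 genes, orange where higher on the right in replicates 1 and 5 and blue where higher on the left; Samd3 and Isx are below 1 CPM and drawn all the same. Samd3 and Isx are below 0 on both axes, and Tbr1 and Meis2 are below 0 on the x axis alone.

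The genes whose patterns over the 10 libraries lay nearest to each gene were found among 13274 genes averaging 1 CPM or more, by the root mean square difference of centred log2 CPM. The nearest genes were close for the abundant ones. Mrvi1 and Akap12 lay at 0.15 from Vsnl1, Plat and Cntn3 at 0.14 from Kalrn, Pcdhac1 at 0.15 and AK051847 at 0.23 from Rhob, and Cetn3 and AK155239 at 0.17 from Rragd. BC078455 and Srl lay at 0.14 and 0.17 from Fam161a, and Nle1 and Alg1 at 0.26 from Snrpd3. For the scarce genes no pattern lay that near. Tbr1 itself was the nearest gene to Samd3, at 0.60, followed by Cenpu at 0.61. Cenpu and Pirt lay at 0.46 and 0.54 from Tbr1, Rspo1 and Plekhg2 at 0.45 and 0.46 from Meis2, and Gipc2 and Irf1 at 0.49 and 0.53 from Isx. Gipc2 stood at 3.49 and 3.32 CPM in left replicates 1 and 5 and at 4.86 and 4.05 CPM in the right ones, and between 1.31 and 2.96 CPM in replicates 2 to 4. These likenesses are descriptions over libraries that share the composition differences above.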

How the data were processed

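The authors deposited whole-number counts for every gene of each library, without scaling. As the submitters' processing notes name them, they used STAR 2.0.0e, HTSeq and the build mm10; no source used here gives the annotation, strand setting or filters. Groups came from the sample titles. Of the rows, 6 that name no gene were left out; reads outside genes were 13.6% to 18.9% and ambiguous reads 2.25% to 2.81% of the sum of these and reads in genes.

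Levels are CPM over gene rows. The sides were tested in replicates 2 to 4 with edgeR 4.0.16 in R 4.3.3 (TMM, filterByExpr on the sides, minimum count 10, quasi-likelihood F test with robust dispersion, side as the only term, two-sided, adjusted p under 0.05), with intervals from the F statistic. Replicates 1 and 5 were summed per side and given as log2 ratios, with 1 read added to each sum for the ranks and counts over all genes and none for the 10 genes; exact binomial 95% intervals cover counting error only. Exact permutation tests used log2(CPM + 0.1). Like numbers share a lane in replicates 2 to 4, and the numbers were taken to pair the libraries. Deviations of same-numbered libraries from their side's mean correlated at 0.531, 0.131 and 0.201. Those of unlike numbers correlated at -0.503 (left 4 with right 2) to 0.47 (left 4 with right 3). The correlations thus do not single out like numbers, and the pairing is uncertain. Alternatives were other normalisations and filters, DESeq2 1.42.0, limma 3.58.1 (voom), a glial covariate, the replicate block, a threshold of 0.10, added libraries and left-out libraries. The fits were tested on simulated data. The genes and lists were chosen with earlier results of these data known. All 10 genes are named, with the 2 nearest in pattern to each and, for each family list, those highest in mean CPM, which is not scaled by length (some are not reported here); other family members and markers were chosen after their values were seen. Coordinates are from GENCODE M21 (GRCm38). Figures used matplotlib 3.10.9.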

Additional observations from a re-analysis of the deposited data

Results flagged for a closer look

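The difference between the sides of Meis2 ran in opposite directions in the 2 sets of libraries. Its log2 fold change, left minus right, was 0.53 in replicates 2 to 4, with all 3 left libraries above all 3 right ones, and its log2 ratio was -2.39 in replicates 1 and 5, with both left libraries below both right ones. The difference between the sets was not tested, since replicates 1 and 5 chose the gene. No single library stood far from the other 4 of its side for any of the 10 genes, in 20 groups of 5 libraries examined. Among independent libraries chance alone flags about 1 in 20. Replicates 1 and 5 of a side were nearly alike, so that rate need not hold. A departure shared by both could not be flagged.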

How the results depend on the processing

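Of 168 alternative values of the 10 genes in replicates 2 to 4, 0 passed the threshold in edgeR, DESeq2 or limma-voom. The lowest adjusted p was 0.893, in limma-voom, and no alternative called any gene. The replicate block gave 0 called genes and 0 called members and changed no other call. The sign of Meis2, Samd3, Isx, Rragd, Rhob and Fam161a held in every alternative run, 17 for each but 16 for Samd3 and Isx, which could not be fitted where at least 1 CPM was asked for. The sign turned in 11 values. With replicates 1 and 5 summed and added, Tbr1 came to -0.34 and Snrpd3 to -0.24; Meis2 then fell to 0.04. In limma-voom Kalrn came to -0.16, and without replicate 2 of both sides, an alternative added after the data were seen, to -0.10. Leaving out 1 library gave -0.25 to 0.39 for Snrpd3, with -0.02 without right replicate 2 and -0.06 without right replicate 3. It gave -0.21 to 0.49 for Vsnl1 and -0.28 to 0.31 for Kalrn. Without left replicate 4, Vsnl1 came to -0.14 and Kalrn to -0.21. The cause was not tested. In replicates 1 and 5 the count of genes past 2-fold was 40, and 52 with either replicate alone. It was 0 among genes averaging 10 CPM or more, where fewer and more abundant genes were counted. Depth limits Isx and Samd3, at 4 to 44 reads per library in replicates 2 to 4.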
